A study of Mus musculus with 10 samples.

Results

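The aryl hydrocarbon receptor axis was followed through 7 genes, of 18193 genes with a probe set of a single symbol, in lungs of ICR mice raised in room air or in hyperoxia. The members are the receptor Ahr, its partner Arnt, its repressor Ahrr and the target genes Tiparp, Cyp1a1, Cyp1b1 and Aldh3a1. They were chosen on measured values of these arrays, because Cyp1a1 and Aldh3a1 had differed from room air in opposite directions at postnatal day 14 (P14). Every value of the P14 contrast is therefore a description, and only the contrast at postnatal day 29 (P29), which shares no array with it, was tested. All probe sets annotated with exactly 1 of the 7 symbols were taken, 16 in all, and for each gene the brightest of them, by its mean across arrays, leads.

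The series models bronchopulmonary dysplasia (BPD), a lasting lung injury of infants born early and treated with oxygen. Litters were pooled within 12 hours of birth and divided into 4 groups, kept in 80% oxygen or in room air until P14 or P29, while nursing dams changed places every 24 hours. The groups hold 2 arrays for room air and 3 for hyperoxia at each age, titled WT and BPD, and WT and BPD mice are of the same ICR strain with no altered allele. RNA came from whole dissected lung, so fewer cells of a type and less RNA per cell cannot be told apart. Whether an array is 1 animal or a pool is not labelled, so p-values measure the spread between these arrays, which may be technical. The lung label held on its defining marker, surfactant protein C (Sftpc), at a mean log2 value of 14.71 to 14.86 in the 4 groups.

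The aryl hydrocarbon receptor is a ligand-activated transcription factor of the basic helix-loop-helix PAS family that waits in the cytoplasm with heat shock protein 90. Once bound by planar aromatic compounds or by tryptophan metabolites it enters the nucleus, pairs with Arnt and binds DNA at elements with the core GCGTG. Its best known targets are the cytochrome P450 enzymes of family 1, and it also switches on its own brakes, the repressor Ahrr and the ADP-ribosyltransferase Tiparp. In newborn lung the pathway has been studied for a role in protection from oxygen injury.

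Promoters were set beside the values because Cyp1a1 and Cyp1b1, enzymes of the same family, differed in opposite directions at P14. The windows are those of RefSeq on GRCm38.p6, from 250 bases before to 50 bases after the start of the transcript, and 5 of the 7 members had an entry. The core GCGTG, searched on both strands, is in capitals, and CACGC is the same core read from the other strand. The Cyp1a1 window lies at chr9:57697363-57697662 on the plus strand and the Cyp1b1 window at chr17:79715012-79715311 on the minus strand.
Cyp1a1: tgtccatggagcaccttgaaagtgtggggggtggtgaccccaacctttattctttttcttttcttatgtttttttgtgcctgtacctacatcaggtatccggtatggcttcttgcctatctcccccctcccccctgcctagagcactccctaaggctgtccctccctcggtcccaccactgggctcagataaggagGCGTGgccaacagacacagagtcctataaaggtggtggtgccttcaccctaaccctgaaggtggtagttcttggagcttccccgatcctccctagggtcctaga
Cyp1b1: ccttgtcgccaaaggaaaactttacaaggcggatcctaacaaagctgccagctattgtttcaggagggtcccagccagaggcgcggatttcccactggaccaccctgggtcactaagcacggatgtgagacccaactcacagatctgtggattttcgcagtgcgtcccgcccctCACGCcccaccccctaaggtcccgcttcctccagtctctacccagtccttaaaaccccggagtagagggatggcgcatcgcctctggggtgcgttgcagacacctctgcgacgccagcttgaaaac
Each of these windows held 1 core, from 54 to 50 bases before the start in Cyp1a1 and, on the antisense strand, from 76 to 72 bases before it in Cyp1b1. The Tiparp and Arnt windows also held 1 each, and the Ahrr window held 3, of which the core 27 to 23 bases before the start lies within the longer form TNGCGTG. Of 32851 promoter windows of this length in the table, 32.4% held at least 1 GCGTG, 3.91% at least 3 and 5.07% at least 1 TNGCGTG. The match is of letters only, and cores outside these windows were not searched. Cyp1a1 and Cyp1b1, whose P14 differences were opposite, each had a single core in this window.

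At P14 the 3 enzymes of the axis stood far from room air, and the receptor, its partner and Tiparp stood closer to it. On the leading probe sets Aldh3a1 was 7.47-fold and Cyp1b1 4.40-fold higher in hyperoxia, while Cyp1a1 was 5.33-fold lower. The low group of Aldh3a1 lay below the filter value of 5 and that of Cyp1a1 around it, so the sizes of these folds, and ranks by size, rest on signals at the low end of the arrays. By P29 these 3 differences were 1.90-fold higher, 1.71-fold higher and 1.21-fold higher. Aldh3a1 and Cyp1b1 passed the test at P29 and Cyp1a1 did not. The group that stood apart was not the same for the 3 enzymes: Aldh3a1 and Cyp1b1 were low on the P14 room-air arrays, and Cyp1a1 was low on the P14 hyperoxia arrays.

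**Figure D1:**
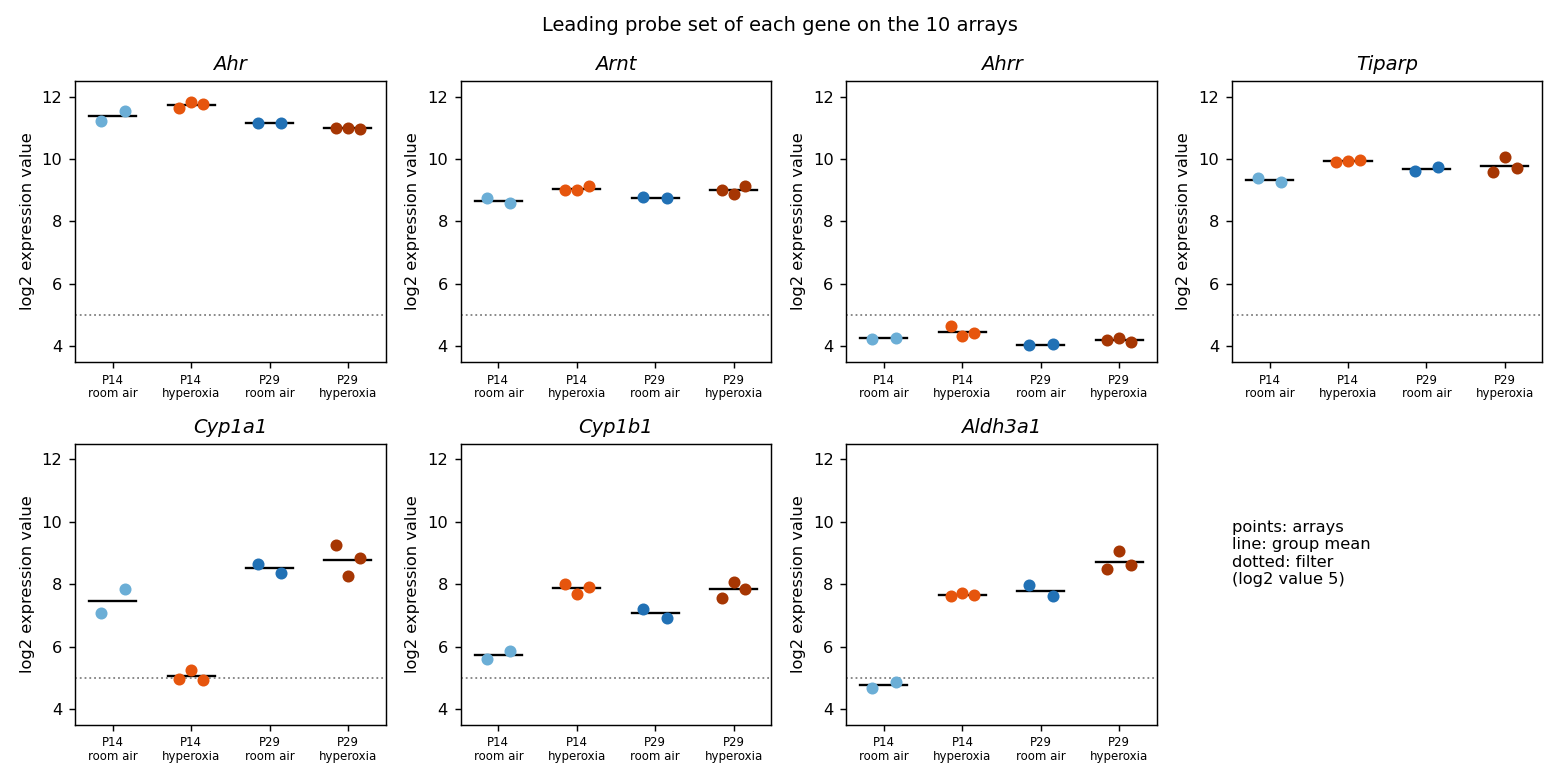
Log2 expression value (y axis) of the leading probe set of the 7 genes on each of the 10 arrays, by group (x axis), with points for arrays, a line for the group mean and a dotted line at the filter value of 5. Aldh3a1 lies at 4.66 and 4.86 on the P14 room-air arrays and at 7.61 or more on all others, Cyp1a1 at 4.93 to 5.25 on the P14 hyperoxia arrays and at 7.08 or more on all others, and Ahrr below 5 throughout.

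The receptor was among the brighter signals of the arrays. The leading probe set of Ahr, 1422631_at, read 11.22 and 11.55 on the log2 scale in P14 room air, 11.64, 11.84 and 11.75 in P14 hyperoxia, 11.14 and 11.15 in P29 room air, and 10.98, 11.01 and 10.96 in P29 hyperoxia. Between 95.8% and 98.1% of all probe sets of the same array lay below it. Hyperoxia arrays were all above room air at P14 and all below it at P29. The difference was 0.36 ± 0.10 (SE) at P14, and 0.19 without P14 room air replicate 1 or 0.53 without replicate 2. At P29 it was -0.17 ± 0.10 (SE; 95% interval -0.39 to 0.06), which did not pass the limma test (adjusted p = 0.178). In hyperoxia the level was lower at P29 than at P14 by 0.77 ± 0.09.

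A dimmer Ahr probe set gave another picture. On 1450695_at, hyperoxia was lower at both ages, by -0.93 ± 0.20 (SE) at P14 and -0.75 ± 0.20 at P29, with no overlap of arrays. Its values were 7.43 and 6.61 in P14 room air and 6.05 to 6.16 in P14 hyperoxia. The direction of the P14 difference of Ahr therefore depends on the probe set. The P29 difference was negative on both.

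Arnt, the nuclear partner that the receptor shares with the hypoxia-inducible factors, rose slightly at P29 on its leading probe set. Its leading probe set, 1419996_s_at, read 8.74 and 8.58 in P14 room air, 9.0, 9.02 and 9.14 in P14 hyperoxia, 8.77 and 8.74 in P29 room air, and 9.02, 8.88 and 9.13 in P29 hyperoxia. All hyperoxia arrays were above all room-air arrays of their age. The difference was 0.40 ± 0.09 (SE) at P14 and 0.25 ± 0.09 at P29 (limma adjusted p = 0.0363; higher on 3 of 3 arrays). The call was lost without P29 room air replicate 1 (adjusted p = 0.0973), P29 room air replicate 2 (0.136), P29 hyperoxia replicate 1 (0.0768) or P29 hyperoxia replicate 3 (0.116), and it held in 10 of 23 alternative settings.

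The 5 Arnt probe sets differed in direction. On 1437042_at hyperoxia was higher by 0.86 ± 0.13 (SE) at P14 and 0.95 ± 0.13 at P29. On 1421721_a_at it was lower, by -1.25 ± 0.19 and -0.91 ± 0.19, and on 1425064_at by -0.30 ± 0.12 and -0.43 ± 0.12. The dimmest, 1449696_at, differed by 0.04 and 0.17. In all, 3 Arnt probe sets were higher and 2 lower in hyperoxia at both ages, and at P29 the arrays did not overlap on any of the 5. The direction of Arnt as a gene is therefore not settled by these probe sets, and the call at P29 is that of the leading one.

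Ahrr, the repressor that competes with the receptor for Arnt, was at the low end of every array. Its only probe set, 1420796_at, lay between 4.04 and 4.64 on the log2 scale, and 13.4% to 24.9% of probe sets of the same array lay below it. It never reached the filter of 5 and was not tested. Hyperoxia means were 4.47 ± 0.16 (SD, n = 3) against 4.26 ± 0.02 (n = 2) at P14 and 4.2 ± 0.07 against 4.05 ± 0.01 at P29. All hyperoxia arrays lay above room air at both ages, but at this signal whether the repressor changed cannot be told. The 3 cores in its promoter window have no readout here.

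Tiparp, which modifies the receptor and ends its activity, was higher in hyperoxia at P14 on 1426721_s_at. It read 9.38 and 9.28 in P14 room air and 9.92, 9.94 and 9.96 in P14 hyperoxia, a difference of 0.61 ± 0.12 (SE) with no overlap. At P29 it read 9.62 and 9.74 in room air and 9.58, 10.05 and 9.70 in hyperoxia. These arrays overlapped, and the difference of 0.10 ± 0.12 (95% interval -0.17 to 0.37) did not pass the limma test (adjusted p = 0.485). The high array, replicate 2, carries the P29 value: without it the difference was -0.04. The other 2 probe sets gave 0.53 ± 0.15 and 0.17 ± 0.20 at P14, and 0.24 ± 0.15 and -0.43 ± 0.20 at P29.

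Cyp1a1, the P450 most often used as a readout of receptor activity, was low on the P14 hyperoxia arrays alone. Its only probe set, 1422217_a_at, read 7.08 and 7.84 in P14 room air and 4.96, 5.25 and 4.93 in P14 hyperoxia. In P29 room air it read 8.66 and 8.36, and in P29 hyperoxia 9.25, 8.27 and 8.84. The P14 hyperoxia arrays were lowest, with 29.0% to 33.5% of probe sets of the same array below Cyp1a1, against 59.1% or more in P14 room air.

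The P14 difference of Cyp1a1 was -2.41 ± 0.27 (SE), the 7th lowest of 14988 genes. It was -2.03 without P14 room air replicate 2 and -2.79 without P14 room air replicate 1. At P29 the difference was 0.28 ± 0.27 (SE; 95% interval -0.31 to 0.86) and did not pass the limma test (adjusted p = 0.391). It was 0.04 without P29 hyperoxia replicate 1, 0.53 without P29 hyperoxia replicate 2, 0.42 without P29 room air replicate 1, 0.13 without P29 room air replicate 2, and 0.13 and 0.14 after quantile and 75th percentile scaling. The interval leaves out a fall of the size seen at P14. Among the groups, P14 hyperoxia and P14 room air did not overlap with each other or with P29, whereas P29 room air and P29 hyperoxia overlapped. From P14 to P29 the level was higher by 1.05 ± 0.29 in room air and by 3.73 ± 0.24 in hyperoxia.

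Sex-linked transcripts differed within the P29 arrays, and among the P29 hyperoxia arrays their order was that of Cyp1a1. Across the ages this order did not hold. Cyp1a1 was 7.84 or lower on the P14 arrays of male pattern and 8.66 and 8.36 on the female P29 room-air arrays. All P14 arrays carried the male pattern, with Xist at 6.63 to 6.99 and a mean of 3 Y-linked genes at 7.68 or above. The P29 room-air arrays were female by Xist (12.48 and 12.66). In P29 hyperoxia the array with Y-linked transcripts and low Xist, replicate 1, had the highest Cyp1a1 (9.25), the female array, replicate 2, the lowest (8.27), and replicate 3, with Xist at 11.94 and Y-linked genes at 7.71, lay between (8.84). With replicate 2 as the only P29 hyperoxia array, so that all P29 arrays are female, the differences were -0.24 for Cyp1a1 (adjusted p = 0.477), 0.38 for Tiparp (adjusted p = 0.0216), 1.02 for Cyp1b1 and 1.27 for Aldh3a1. The part of sex in the P29 values was not tested beyond these fits. Since the room-air arrays carry the male pattern at P14 and the female pattern at P29, age and sex cannot be told apart in any room-air age difference given here, and the hyperoxia age differences mix them in part.

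Cyp1b1, the P450 of the same family that acts on oestradiol and retinol, rose at P29. Its leading probe set, 1416612_at, read 5.6 and 5.86 in P14 room air, 8.01, 7.69 and 7.91 in P14 hyperoxia, 7.22 and 6.90 in P29 room air, and 7.55, 8.08 and 7.86 in P29 hyperoxia. Hyperoxia arrays were above room air at both ages. The difference was 2.14 ± 0.16 (SE) at P14 and 0.77 ± 0.16 at P29 (limma adjusted p = 0.00167; higher on 3 of 3 arrays). From P14 to P29 the room-air level was higher by 1.33 ± 0.18, towards that of hyperoxia, which differed by -0.04 ± 0.14 over the same span. A second probe set, 1416613_at, gave 0.87 ± 0.15 at P14 and 0.96 ± 0.15 at P29. The third, 1432081_at, stayed below the filter at 4.10 to 4.57.

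Aldh3a1, a cytosolic aldehyde dehydrogenase of surface epithelia that clears aldehydes from lipid peroxidation, rose most of the tested members at P29. Its only probe set, 1418752_at, read 4.66 and 4.86 in P14 room air, 7.63, 7.71 and 7.66 in P14 hyperoxia, 7.97 and 7.61 in P29 room air, and 8.49, 9.06 and 8.61 in P29 hyperoxia. P14 hyperoxia lay within the range of P29 room air, and only P14 room air was below 5. The difference was 2.90 ± 0.16 (SE) at P14, the 11th highest of 14988 genes. At P29 it was 0.93 ± 0.16 (limma adjusted p = 0.000465; higher on 3 of 3 arrays). The age difference was 3.03 ± 0.17 in room air and 1.05 ± 0.14 in hyperoxia.

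**Figure D2:**
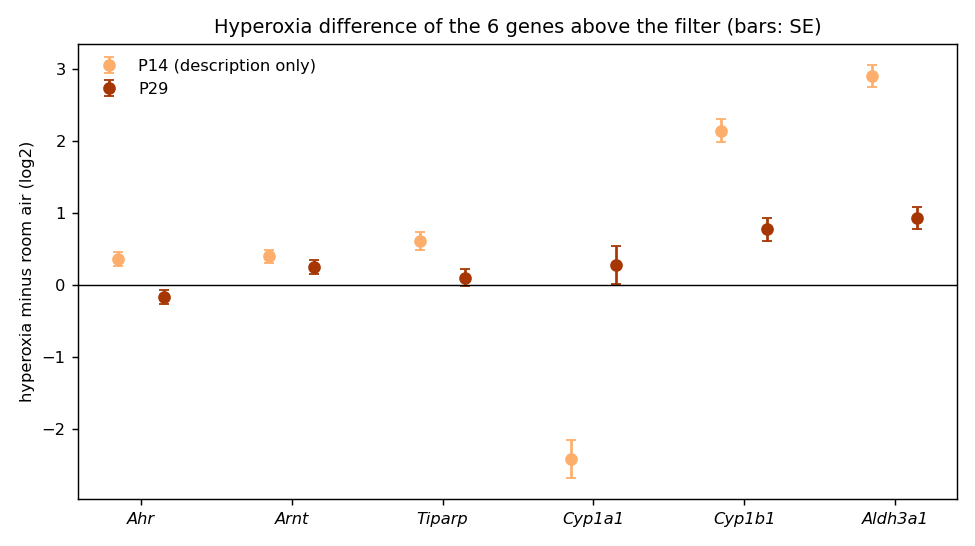
Hyperoxia minus room air on the log2 scale (y axis) for the leading probe sets of the 6 genes above the filter (x axis), with pale points for P14, a description, dark points for P29, and bars for the SE. Cyp1a1 is at -2.41 at P14 and 0.28 at P29, whereas Cyp1b1 and Aldh3a1 are above 0 at both ages and closer to 0 at P29.

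Counted over the 6 tested members, 3 rose (Cyp1b1, Aldh3a1 and the leading probe set of Arnt) and 0 fell at P29 at a limma adjusted p under 0.05. Ahr was called lower under 4 alternatives: the mean of its probe sets (-0.46), the probe set of largest SD (-0.75), quantile normalization (-0.26) and 75th percentile scaling (-0.30). Arnt was called lower on its probe set of largest SD (-0.90). Of all 14988 genes tested, 59.7% were called at P29, 34.2% higher and 25.6% lower, so the count of members called does not stand out from the background. The higher share of all calls was 57.2%, and it was 40.8% after scaling arrays by the 75th percentile. All 3 P29 hyperoxia arrays lay above room air for 3 members and below it for 1, against 41.2% and 33.1% of all genes. At P14 the arrays did not overlap for any of the 6, with 5 above and 1 below, where 39.6% and 31.7% of all genes did so. The sizes at P29 were larger for Aldh3a1 and Cyp1b1, which 8.84% and 13.4% of genes exceeded in absolute difference, than for Arnt (61.1%), Cyp1a1 (57.6%), Ahr (73.7%) and Tiparp (83.9%). The median P29 difference of the 6 members was 0.26, beside 0.04 for all genes.

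A control that separates all hyperoxia from all room-air arrays moved with these rises. The actin control probe sets at the 3' end exceeded those at the 5' end by 1.33 to 2.21 in hyperoxia (6 arrays) and by 0.32 to 0.74 in room air (4 arrays); a larger gap is known from RNA that is less intact. With this difference as a term in the fit no member was called (Aldh3a1 0.89 ± 0.35, SE, adjusted p = 0.103; Cyp1b1 0.69 ± 0.36, adjusted p = 0.193; Arnt 0.15 ± 0.20, adjusted p = 0.633). The control and hyperoxia separate the same arrays, so this fit cannot tell them apart and has a larger SE. Without the term the differences were 0.93 ± 0.16 for Aldh3a1, 0.77 ± 0.16 for Cyp1b1 and 0.25 ± 0.09 for Arnt. The part of the control in the disagreement between probe sets of Ahr, Arnt and Tiparp was not tested.

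**Figure D3:**
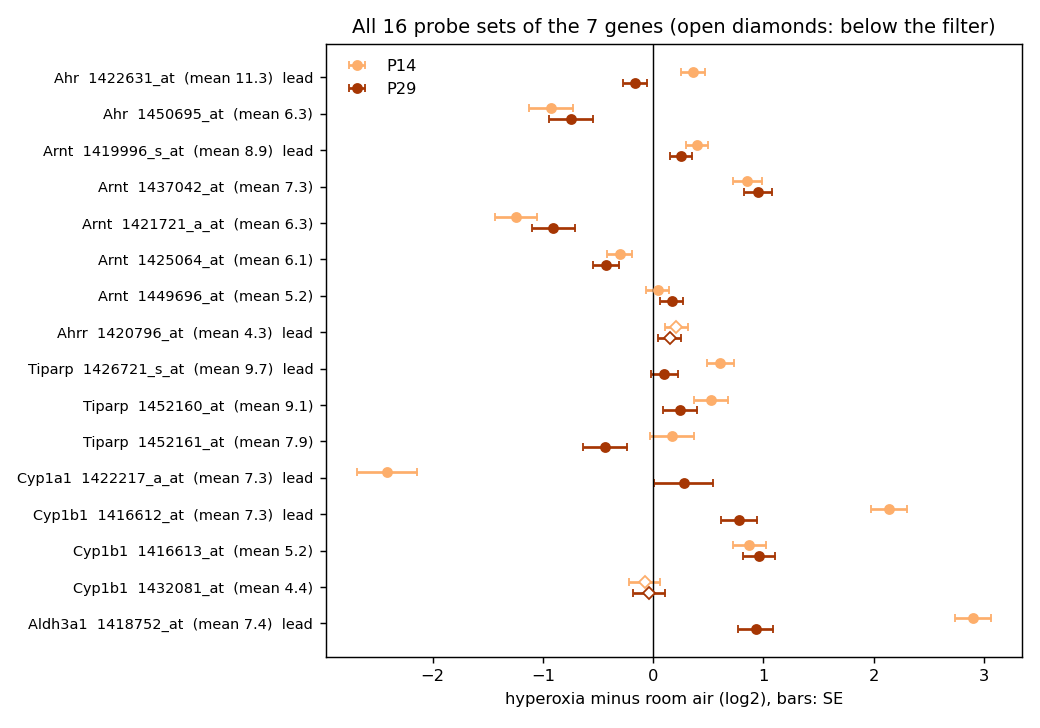
Hyperoxia minus room air on the log2 scale (x axis) for all 16 probe sets of the 7 genes (y axis, with the mean over 10 arrays in brackets), at P14 (pale) and P29 (dark), with bars for the SE and open diamonds for the 2 probe sets below the filter. The probe sets of Ahr and Arnt lie on both sides of 0, and 9 of the 16 were higher and 4 lower at both ages.

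Between the ages the effect of hyperoxia differed in opposite senses among the enzymes. The P29 effect minus the P14 effect was 2.69 ± 0.38 (SE) for Cyp1a1, -1.97 ± 0.22 for Aldh3a1 and -1.36 ± 0.23 for Cyp1b1. For Ahr it was -0.53 ± 0.15, for Tiparp -0.51 ± 0.17 and for Arnt -0.15 ± 0.13. On the second Cyp1b1 probe set that passed the filter, 1416613_at, it was 0.09 ± 0.21. The smaller effect of Cyp1b1 at P29 was thus seen on the leading probe set and not on that one. The room-air means of 1416613_at were 4.38 at P14 and 4.93 at P29, below the filter value of 5. It is therefore a weak check on the change with age. The differences between the P29 and P14 effects contain the contrast on which the genes were chosen and are given without a test.

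The genes of most similar pattern were found by the root mean square difference of centred log2 values over the 10 arrays, which all come from the same libraries. Closest to Aldh3a1 were Fam47e at 0.30, the carboxylesterase Ces1f at 0.33, the aldehyde oxidase Aox1 at 0.35, Nptx1 at 0.38 and Cfap43, a protein of motile cilia, at 0.38, against a spread of 1.41 for Aldh3a1 itself. Closest to Cyp1b1 were Lrrc34 at 0.13, the cilium-associated Cfap299 at 0.15 and the glucose transporter Slc2a1 at 0.18, against its own spread of 0.84. No gene followed Cyp1a1 as closely. The nearest were the antimicrobial lectin Reg3g at 0.83, the airway secretoglobin Scgb3a1 at 0.83, Wfdc17 at 0.88, the clock output gene Dbp at 0.90 and Dleu2 at 0.93, against a spread of 1.60. For Ahr the nearest were 2810403D21Rik, Pop4 and D16Ertd472e, at 0.09, 0.09 and 0.10 against a spread of 0.32. For Arnt they were Tesk2, Rab11a and Smap2, all at 0.07 against 0.18, and for Tiparp Nsrp1, Rnf113a2 and Slc25a14, at 0.08, 0.09 and 0.09 against 0.24.

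Markers of ciliated cells were lowest in P14 room air, as Aldh3a1 and Cyp1b1 were. Cyp1b1 was higher in P14 hyperoxia (7.69 to 8.01) than in P29 room air (6.90 to 7.22), whereas the ciliated means of these groups overlapped. The mean log2 value of 6 ciliated markers was 6.88 and 7.15 in P14 room air, 8.04, 7.92 and 8.03 in P14 hyperoxia, 8.22 and 8.03 in P29 room air, and 8.47, 8.65 and 8.50 in P29 hyperoxia, so that P14 room air was lowest here too. Their summed linear level ran from 930 to 1150 in P14 room air, 2100 to 2380 in P14 hyperoxia, 2310 to 2890 in P29 room air and 3150 to 3790 in P29 hyperoxia. At P29 4 of the 6 rose and 0 fell (median 0.45). Over all genes 34.2% were called higher and 25.6% lower, and no marker count was tested against these shares. Ccdc39 rose by 1.02 ± 0.13 (SE) and Foxj1, the master regulator of motile cilia, by 0.46 ± 0.13. Dynlrb2 and Dnah5 differed by 0.24 and -0.22 and did not pass the limma threshold. Of 5 club cell markers, 1 rose and 3 fell at P29 (median -0.19). Their summed linear level was also lowest in P14 room air, at 40500 to 41900. It was 57800 to 61600 in P14 hyperoxia, 74300 to 75600 in P29 room air and 69800 to 69900 in P29 hyperoxia. Their mean log2 value was alike in the P14 groups, at 10.83 to 11.0. The part of these cell types in the rise of Aldh3a1 and Cyp1b1 was not tested.

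Endothelial and secretory airway markers were set beside Cyp1a1, which capillary endothelium can express. The mean of 12 endothelial markers was 11.34 and 11.39 in P14 room air and 10.92 to 11.05 in P14 hyperoxia, then 11.55 and 11.66 in P29 room air and 10.51 to 10.70 in P29 hyperoxia. At P29 9 of the 12 fell and 0 rose (median -0.90), whereas Cyp1a1 differed by 0.28. The marker counts of this paragraph stand beside 34.2% of all genes called higher and 25.6% lower, and none was tested against these shares. Gpihbp1, the lipase anchor of capillaries, fell by 3.13 ± 0.20 (SE), the most of the list. Cdh5, Kdr and Emcn differed by -0.07, -0.07 and 0.04 and did not pass. The summed linear endothelial level was 35900 to 37200 in P14 room air, 27300 to 30100 in P14 hyperoxia, 41500 to 43500 in P29 room air and 21500 to 23900 in P29 hyperoxia. The club cell mean was 10.83 to 11.0 in both P14 groups and 12.13 to 13.46 at P29, and the list did not follow Cyp1a1 at P14. Of its 5 genes Scgb3a1 alone was lower in P14 hyperoxia (by -2.74), whereas Scgb1a1, Scgb3a2 and Cyp2f2 were higher, by 0.35, 0.71 and 1.07. Bpifa1 lay below the filter value of 5 at P14, at means of 4.27 and 4.48, and differed by 0.21 ± 0.52 (SE). Its means at P29 were 11.61 in room air and 7.76 in hyperoxia, so it carries part of the age difference in the club cell mean. Of 8 fibroblast and pericyte markers 5 rose and 2 fell at P29, and of 6 alveolar type 2 markers 0 rose and 4 fell. Markers of tissues outside the lung parenchyma were low, with list means of 5.27 to 5.66 for squamous epithelium and 5.33 to 5.77 for liver. At P29 4 of 6 tested squamous markers and 1 of 4 liver markers fell, and none rose. The part of these cell types in Cyp1a1 was not tested.

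**Figure D4:**
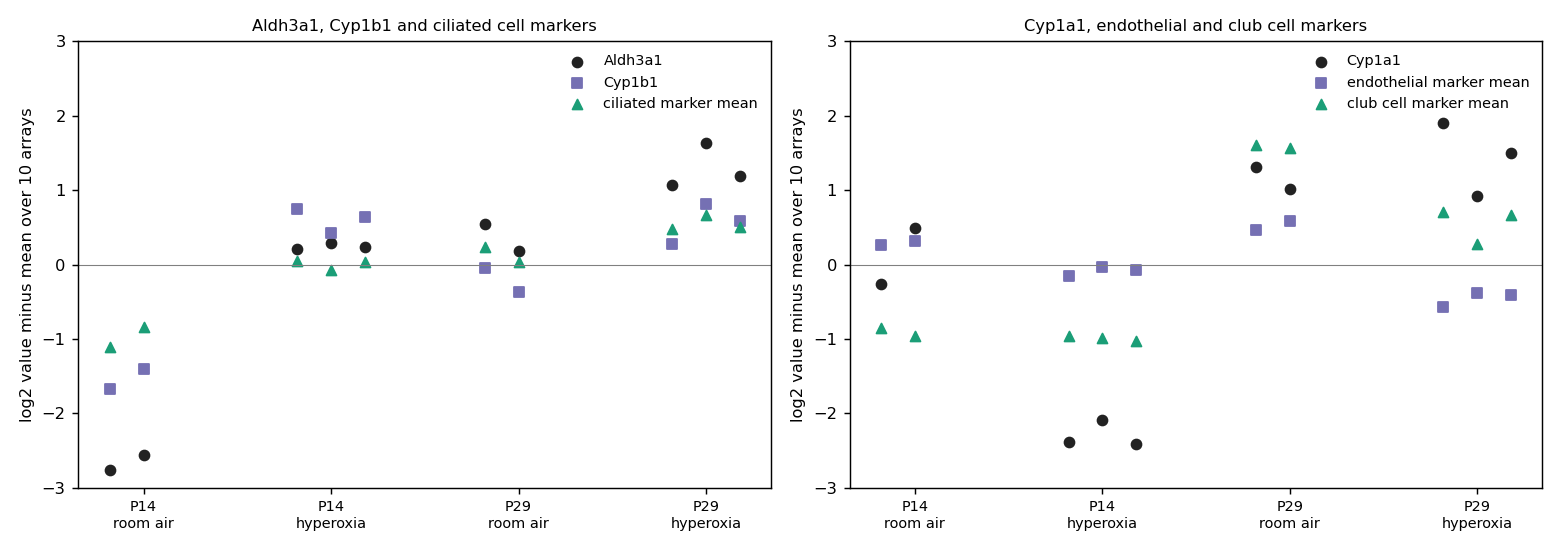
Log2 value minus its mean over the 10 arrays (y axis) on each array by group (x axis), for Aldh3a1, Cyp1b1 and the mean of 6 ciliated cell markers at left, and for Cyp1a1 and the means of 12 endothelial and 5 club cell markers at right. At left P14 room air is lowest for all 3 series, and at right Cyp1a1 is lowest in P14 hyperoxia while the endothelial mean is lowest in P29 hyperoxia.

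Other genes of the pathway were taken from lists, whose counts stand beside 34.2% of all genes called higher and 25.6% called lower at P29. Called genes in both directions are therefore common in any list, and no count below was tested against that background. Among partners, chaperones and coregulators of the receptor 7 of 13 rose and 1 fell at P29, with a median of 0.26 beside 0.04 for all genes. The histone acetyltransferase Ep300 rose by 0.75 ± 0.17 (SE; limma adjusted p = 0.00246), the coactivators Ncoa1 by 0.55 ± 0.08 (0.000223) and Ncoa2 by 0.39 ± 0.12 (0.0138), and Cdc37, a cochaperone of heat shock protein 90, fell by 0.72 ± 0.09 (5.12e-05). A dimmer probe set gave -0.05 for Cdc37, and 3 others gave -0.59 to -0.04 for Ncoa2. Hsp90aa1, the inducible heat shock protein 90, differed by 0.06 ± 0.10 (adjusted p = 0.621).

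Of 9 other known target genes of the receptor that were tested, 3 rose and 2 fell at P29, and 4 did not pass, which is near the background shares. The quinone reductase Nqo1 rose by 2.43 ± 0.09 (SE; limma adjusted p = 2.18e-08) and the glutathione transferase Gsta2 by 1.83 ± 0.11 (4.8e-07), and both are also targets of the oxidant sensor Nrf2. The gene of that sensor, Nfe2l2, rose by 0.27 ± 0.07 (0.00869). Xanthine dehydrogenase, Xdh, fell by 1.73 ± 0.09 (2.06e-07) and the flavin monooxygenase Fmo2 by 0.45 ± 0.11 (0.00381). Cyp1a2, the neighbour of Cyp1a1 in the genome and the same family, differed by -0.13 ± 0.11 (adjusted p = 0.325) at means of 4.78 to 5.15, close to the filter. Cyp2s1, a P450 of epithelia, differed by 0.26 ± 0.19 (0.268) and the hormone gene Fgf21 by -0.11 ± 0.09 (0.322).

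Of 10 tested enzymes of tryptophan and ligand metabolism, 5 fell and 2 rose at P29, with a median of -0.18. Tdo2, which opens the tryptophan ring, rose by 1.80 ± 0.15 (SE; limma adjusted p = 3.06e-06; 0.43 and 0.50 on its other probe sets), from a mean of 4.77 in room air to 6.57 in hyperoxia. Its means in the other groups were below the filter value of 5. By group means Tdo2 thus reached the filter only in P29 hyperoxia, the group whose rise was then tested. Its call, 1 of the 2 rises counted here, is therefore a description, and the size of the rise is uncertain. Il4i1, an amino acid oxidase that yields receptor ligands, fell by 1.13 ± 0.20 (0.00052). The kynurenine pathway enzymes Haao and Qprt fell by 0.58 ± 0.15 (0.00683) and 0.39 ± 0.11 (0.00975), and Wars, which charges the transfer RNA of tryptophan, fell by 0.42 ± 0.08 (0.00124). Kmo, the kynurenine hydroxylase, rose by 0.38 ± 0.13 (0.0221). Ido1, which opens the same ring, lay below the filter. At P29 the means of Il4i1, Haao and Qprt were 6.08, 6.2 and 5.81 in room air and 4.95, 5.62 and 5.42 in hyperoxia. These are signals at the low end, where 4 of 6 tested squamous markers and 1 of 4 liver markers also fell. Kmo rose at a similar level, from 5.78 to 6.16. Whether the falls are particular to these enzymes was not tested.

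Of 11 aldehyde dehydrogenases related to Aldh3a1, 4 rose and 6 fell at P29, with a median of -0.23. Aldh1a7 rose by 0.80 ± 0.09 (SE; limma adjusted p = 2.84e-05) and Aldh7a1 by 0.38 ± 0.07 (0.00122; -0.74 and -0.21 on other probe sets), whereas Aldh3b1 fell by 0.70 ± 0.08 (2.28e-05) and Aldh3b2 by 0.45 ± 0.09 (0.00132). Aldh3a2, the member of the same subfamily that handles fatty aldehydes, fell by 0.23 ± 0.07 (0.0204).

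Other P450 genes and their redox partners fell in 5 of 9 cases at P29 and rose in 2, with a median of -0.19. Cyp4b1 fell by 1.46 ± 0.11 (SE; limma adjusted p = 1.49e-06), Cyp2b10 by 1.16 ± 0.24 (0.0015) and Cyp26b1, which degrades retinoic acid, by 1.71 ± 0.32 (0.000846), with a SD of 1.07 between the 2 room-air arrays of Cyp26b1. Cyp2j6 rose by 1.03 ± 0.11 (2.5e-05; 0.30 on another probe set) and Cyp51, of sterol synthesis, by 0.42 ± 0.12 (0.0138). The reductase Cyb5r3 fell by 0.28 ± 0.09 (0.0139) and the club cell enzyme Cyp2f2 fell by 0.19 ± 0.07 (0.0423), while Cyb5b differed by -0.10 ± 0.08 (0.327). At P14 the median of this list was 0.46, with Cyp2b10 higher by 1.91 ± 0.24.

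**Figure D5:**
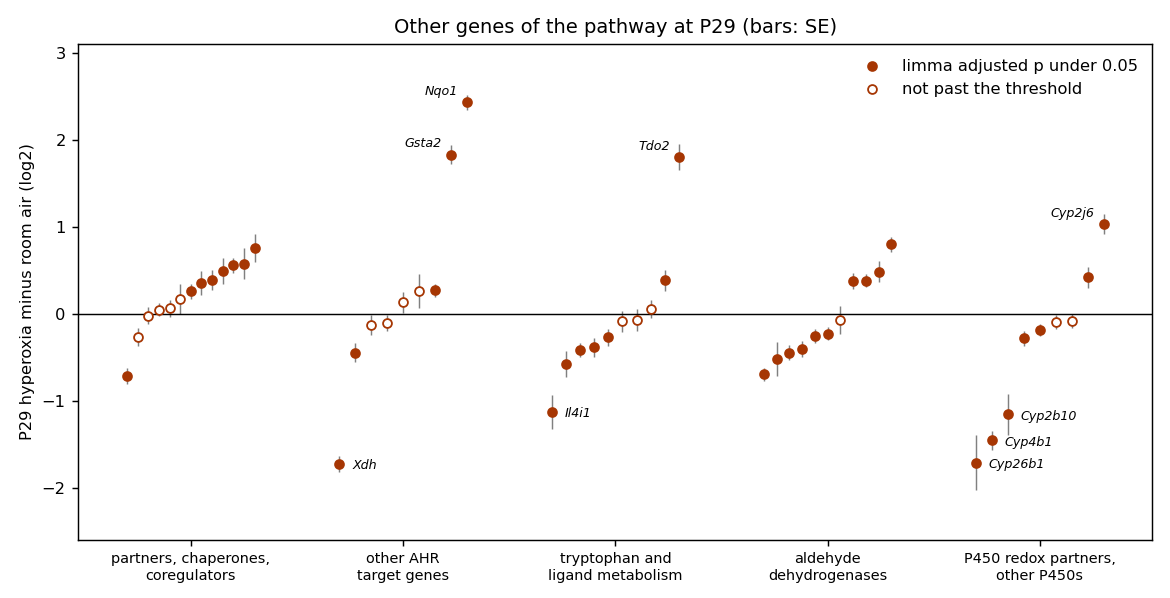
P29 hyperoxia minus room air on the log2 scale (y axis) for the tested genes of 5 pathway lists (x axis), ordered by size within each list, with bars for the SE, filled points past the limma threshold and open points not past it. Genes that differ by 1 or more are named, from Nqo1 at 2.43 to Xdh at -1.73.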

How the data were processed

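Lung RNA was measured on Affymetrix arrays of 45101 probe sets. The values are log2 expression values as the authors deposited them; per the submitters' processing notes Partek 6.4 and GCRMA were used, with settings not given in the sources used. Array medians were 6.41 to 6.47. Gene symbols came from the annotation of the platform, where 34958 probe sets had 1 symbol, 932 several and 9211 none. Control probe sets formed no gene. Each gene took its probe set of highest mean, and of 18193 genes 14988 reached a log2 value of 5 on 2 or more arrays.

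Group means of the 10 arrays were fitted with limma 3.58.1 in R 4.3.3 (lmFit, eBayes; 6 residual and 5.09 prior degrees of freedom), two-sided, with Benjamini-Hochberg adjustment over all genes kept and a threshold of 0.05; adjusted p-values in brackets after a value are of this kind. SE is of the fitted contrast and SD between arrays; values of single probe sets come from the same fit over all probe sets. The steps were tested on simulated data. The members, lists and alternatives were chosen with earlier results of these data known. Named genes of a list are those differing by 1 or more at P29 and otherwise up to 4 of smallest p; Hsp90aa1, Cyp1a2, Ido1, Aldh3a2 and the named markers fall outside this rule and were picked with their values in view. The number of arrays limits precision.

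Of 17, 18, 14, 12 and 12 listed genes of the 5 pathway lists, 13, 9, 10, 11 and 9 were tested. Aldh1a3 and Ido1 are on 2 lists, and Cyp2f2 is also a club cell marker.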

Additional observations from a re-analysis of the deposited data

Results flagged for a closer look

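The leading probe set of Ahr stood out because every hyperoxia array was above room air at P14 and every hyperoxia array below it at P29. The P29 effect minus the P14 effect was -0.53 on the log2 scale. This difference was not tested, since the P14 contrast was used to choose the genes, and it was not shown by the dimmer probe set, which was lower in hyperoxia at both ages.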

How the results depend on the processing

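At P14, 21 alternative settings gave a value. In all of them the differences of Aldh3a1 (2.8 to 3.0) and Cyp1a1 (-2.79 to -2.03) moved by less than the spread between arrays. Both genes have 1 probe set. Settings that changed only the filter, the probe set choice, the eBayes options or a P29 array could therefore not move these differences. At P29 the filter, the eBayes options, the use of P29 arrays alone and the removal of a P14 array could likewise not move a difference. They changed only its SE and adjusted p. For Aldh3a1 this also held for the probe set choice. Across 23 alternative settings, 10 of them without 1 array, the P29 rises of Aldh3a1 and Cyp1b1 each kept direction and call in 22. The exception was the actin 3' minus 5' term, with Aldh3a1 at 0.89, Cyp1b1 at 0.69, Arnt at 0.15, Tiparp at -0.01, 0 members called, and 1628 genes higher and 1277 lower in place of 5119 and 3831; at P14 this term gave 0.19 for Ahr and 0.28 for Arnt. Without 1 array, the P29 differences were 0.19 to 0.32 for Arnt, 0.04 to 0.53 for Cyp1a1 and -0.04 to 0.20 for Tiparp, and the P14 difference of Ahr was 0.19 to 0.53. The mean of all probe sets gave at P29 -0.46 for Ahr (called lower), 0.01 for Arnt and -0.03 for Tiparp, and at P14 -0.28, -0.05 and 0.43, with 0.98 for Cyp1b1. The probe set of largest SD gave at P29 -0.75 for Ahr and -0.90 for Arnt (both called lower) and -0.43 for Tiparp, and at P14 -0.93, -1.24 and 0.17. Quantile normalization gave -0.26 for Ahr (called lower), 0.10 for Arnt and -0.04 for Tiparp at P29, and 0.26 for Arnt at P14. Setting each array to its 75th percentile gave -0.30 (called lower), 0.12 and -0.03, and 0.30 for Arnt at P14; it moved the P29 median of all genes from 0.04 to -0.10, and relative to that median Ahr was at -0.20 and Arnt at 0.22, beside -0.21 and 0.21 as deposited. With P29 arrays alone Arnt was at 0.25 (adjusted p = 0.0539). The Y-linked term gave -0.23 for Cyp1a1, 0.15 for Arnt and 0.36 for Tiparp (called higher). With P29 hyperoxia replicate 2 alone, Cyp1a1 was at -0.24, Arnt at 0.12 and Tiparp at 0.38 (called higher). The cause of these changes was not tested.

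Replicate numbers showed no pairing (correlations of deviations from -0.09 to 0.20 over 9 pairs). With the replicate block, Arnt was at 0.20 (adjusted p = 0.063), 2 members were called, and 4935 genes were higher and 3848 lower. Signals near the low end of the arrays limit Ahrr, Cyp1a1 in P14 hyperoxia, Aldh3a1 in P14 room air and the Cyp1b1 probe set 1416613_at in room air.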
